A study of Mus musculus with 6 samples.

Results

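The circadian clock genes described here are 10 genes of the negative and output arms of the mammalian clock: the period genes *Per1*, *Per2* and *Per3*, the cryptochrome genes *Cry1* and *Cry2*, the nuclear receptor genes *Nr1d1* and *Nr1d2*, the genes *Dbp* and *Tef* of PAR bZIP transcription factors, and *Bhlhe40*. They were chosen by gene symbol, with earlier results of these data known, and all 10 were found among the 17092 genes of the count table. The RNA of cultured mouse embryonic fibroblasts (MEFs, the matrix-making cells of the embryo) was sequenced in bulk, in 3 libraries from wild-type (WT) and 3 from Aff3ir-ORF2-/- mice. The Aff3ir-ORF2-/- animals are global knockouts, bred from founders made by injecting guide RNAs and Cas9 mRNA into fertilised eggs, and no treatment was given to either group of cells in the labels. The sources used here do not give, for the sequenced cells, the strain (MEFs of other experiments in the study came from C57BL/6 mice), the age or sex of the embryos, whether the 3 libraries of a genotype came from separate embryos or cultures, the hour of harvest, or whether the cultures were synchronised. P-values therefore measure the spread between these libraries, which may be technical, and each library is a single reading of genes whose transcripts are known to cycle through the day.

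In background, the clock of a mammalian cell is a loop of transcription. The activators CLOCK and BMAL1 (gene *Arntl*) bind E-box motifs and switch on the *Per* and *Cry* genes, whose proteins return to the nucleus and block that activation, and they also switch on *Nr1d1* and *Nr1d2* (REV-ERBα and REV-ERBβ), which repress *Arntl* in competition with the ROR receptors. DBP, TEF and HLF carry the rhythm to output genes through D-box motifs, against the repressor NFIL3, and BHLHE40 and BHLHE41 (DEC1 and DEC2) repress at E-boxes. Fibroblasts in culture hold such clocks, and serum, cyclic AMP and glucocorticoids are known to reset them, with *Per1* and *Per2* as early responders.

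The motifs through which these factors act were searched in the RefSeq promoter windows of the members, because these motifs are the known link between the clock factors and their target genes. Each window runs from 250 bases before to 50 bases after an annotated start (GRCm38.p6), and 8 of the 10 members had a window, 10 windows in all. *Per2* and *Bhlhe40* had no window and were not searched. The last 50 bases of 7 of these windows lay in a GENCODE M21 transcript of the same gene. The stretches that hold a match are printed 5′ to 3′ on the strand of the gene, with the match in capitals, which is an E-box (CACGTG) in *Per1*, *Cry1* and *Tef*, its variant CACGTT (written AACGTG where it lies on the other strand) in *Cry1*, *Cry2* and *Nr1d1*, and a D-box (TTATGTAA) in *Per3*.
Per1, chr11:69098763-69098808, plus strand: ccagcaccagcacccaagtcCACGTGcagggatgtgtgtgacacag
Cry1, chr10:85185089-85185153, minus strand: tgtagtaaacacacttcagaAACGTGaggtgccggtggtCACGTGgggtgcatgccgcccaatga
Cry2, chr2:92434210-92434255, minus strand: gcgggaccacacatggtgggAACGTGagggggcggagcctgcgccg
Nr1d1, chr11:98775380-98775425, minus strand: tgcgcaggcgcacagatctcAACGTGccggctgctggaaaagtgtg
Tef, first window, chr15:81802526-81802571, plus strand: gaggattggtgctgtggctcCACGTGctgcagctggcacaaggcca
Tef, second window, chr15:81811256-81811301, plus strand: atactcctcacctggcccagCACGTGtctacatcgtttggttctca
Per3, chr4:151044796-151044890, minus strand: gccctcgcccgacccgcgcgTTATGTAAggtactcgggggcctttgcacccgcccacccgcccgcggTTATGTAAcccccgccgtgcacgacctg

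With both strands searched, the E-box was in 4 of the 10 member windows, from 3 of the 8 genes, and in 7.15% of all 32851 windows. The variant CACGTT was in 3 member windows and in 4.68% of all windows. The D-box stood 2 times in the window of *Per3*, at -205 to -198 and at -158 to -151 (with -1 the base just before the start), and at least once in 0.938% of all windows. The other D-box (TTACGTAA, 0.119% of all windows), the ROR element (TAGGTCA, 2.61%) and the cyclic AMP response element (TGACGTCA, 1.79%) were in none of the 10 member windows, and the windows of *Nr1d2* and *Dbp* held none of the 6 motifs. *Cry1* was the member with an E-box and its variant in the same window, at -60 to -55 and at -79 to -74. A match is only a run of letters, and its absence says nothing about binding elsewhere in the gene.

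Levels are given as CPM, counts per 1000000 counts of the library after TMM scaling. Summed levels of gene lists are CPM of the total counts, without TMM scaling. Across the members, the difference between the genotypes was uneven. *Per1*, *Per2*, *Cry2*, *Nr1d1* and *Nr1d2* fell in Aff3ir-ORF2-/- MEFs, *Per3* rose, and *Cry1*, *Dbp*, *Tef* and *Bhlhe40* did not pass the test (edgeR's quasi-likelihood test, Benjamini-Hochberg adjusted p under 0.05 over 13075 tested genes). With a change of at least 1.5-fold required as well, *Per2* was the 1 member called lower and 0 members were called higher, also at an unadjusted p under 0.05, with limma voom and with DESeq2's Wald test. Changes were common in these libraries: 27.5% of tested genes passed the adjusted p lower and 29.3% higher, and 7.27% were called lower and 14.2% higher at 1.5-fold. Against that background, 5 of 10 members lower and 1 of 10 higher stood above and below the share of all genes, and 1 of 10 called lower was near it. The members were chosen with earlier results of these data known and act in the same loop, so these shares are a description and not a test. The median log2 fold change of the members was -0.25, and that of all tested genes was 0.0056. In size the median absolute log2 fold change was 0.36 for the members and 0.28 for all tested genes, and 60.6% of tested genes changed by less than the median member.

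**Figure D1:**
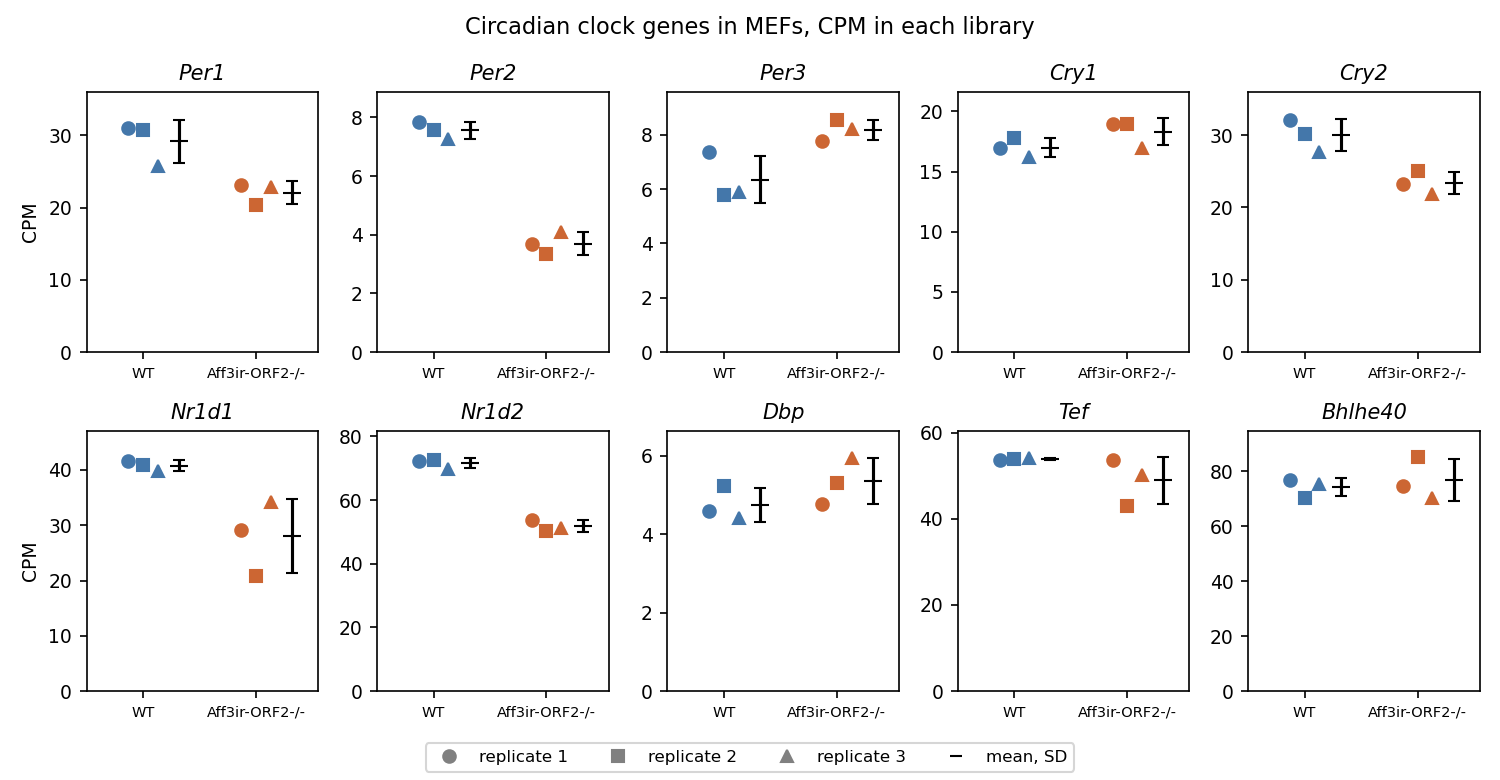
CPM (vertical axes from 0) of the 10 clock genes in each WT (blue) and Aff3ir-ORF2-/- (orange) library, with replicate numbers as symbols and the mean ± SD (n = 3) in black. The values of *Per2* lie between 7.27 and 7.83 CPM in WT and between 3.33 and 4.09 CPM in Aff3ir-ORF2-/- libraries, and *Per3* is the panel in which every orange point stands above every blue one.

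Among the period genes, which encode the proteins that carry the negative feedback, *Per2* (gene ID 18627) changed the most of the 10 members. *Per2* stood at 7.83, 7.56 and 7.27 CPM in WT replicates 1, 2 and 3 and at 3.68, 3.33 and 4.09 CPM in Aff3ir-ORF2-/- replicates 1, 2 and 3. The highest knockout library was thus below the lowest WT library, from 127 to 135 counts in WT and 62 to 75 counts in the knockout. *Per2* fell by 1.03 on the log2 scale (SE 0.13, 95% interval -1.32 to -0.74), 2.04-fold, with an adjusted p of 0.00012 from edgeR. Over the 15 alternatives tried, the log2 fold change lay between -1.11 and -0.96, and the adjusted p between 1.65e-06 and 0.00151.

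*Per1* (gene ID 18626), the other early responder of the family, was at 31.0, 30.7 and 25.7 CPM in WT and at 23.1, 20.3 and 22.8 CPM in Aff3ir-ORF2-/- libraries. WT replicate 3 was the lowest of its group and still above all 3 knockout libraries. *Per1* fell by 0.40 on the log2 scale (SE 0.09, 1.32-fold, edgeR adjusted p = 0.00346). *Per3* (gene ID 18628), whose loss leaves the core rhythm largely intact in mice, went the other way, with 7.36, 5.80 and 5.89 CPM in WT and 7.79, 8.53 and 8.22 CPM in the knockout. The groups of *Per3* did not overlap, but WT replicate 1 came close to the lowest knockout library. *Per3* rose by 0.37 on the log2 scale (SE 0.13, 1.29-fold, edgeR adjusted p = 0.0306). That call was lost without WT replicate 2 (adjusted p = 0.118), without WT replicate 3 (0.112), without Aff3ir-ORF2-/- replicate 3 (0.0591) and with DESeq2's Wald test (0.081), with the log2 fold change between 0.30 and 0.49 over all 15 alternatives.

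The cryptochrome genes, whose proteins are the strongest repressors of CLOCK and BMAL1, parted as well. *Cry2* (gene ID 12953) was at 32.1, 30.1 and 27.7 CPM in WT and at 23.3, 25.0 and 21.9 CPM in Aff3ir-ORF2-/- libraries. All 3 knockout libraries were lower than all WT libraries, and *Cry2* fell by 0.36 on the log2 scale (SE 0.08, 1.28-fold, edgeR adjusted p = 0.00318). *Cry1* (gene ID 12952) was at 17.0, 17.8 and 16.2 CPM in WT and at 19.0, 19.0 and 17.0 CPM in the knockout. These ranges overlapped, and the log2 fold change of *Cry1* was 0.11 (95% interval -0.07 to 0.28, edgeR adjusted p = 0.257).

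The REV-ERB genes were both lower. *Nr1d2* (gene ID 353187) was at 72.2, 72.7 and 69.8 CPM in WT and at 53.8, 50.4 and 51.3 CPM in Aff3ir-ORF2-/- libraries, with a wide gap between tight groups. It fell by 0.46 on the log2 scale (SE 0.05, 1.38-fold), with the smallest adjusted p of the members (4.2e-05 from edgeR). *Nr1d1* (gene ID 217166) was at 41.7, 40.8 and 39.8 CPM in WT and at 29.2, 20.9 and 34.2 CPM in the knockout. The 3 knockout libraries of *Nr1d1* were all below WT but lay far from each other, with replicate 2 the lowest. *Nr1d1* fell by 0.54 on the log2 scale (SE 0.16, 1.45-fold, edgeR adjusted p = 0.0253). Its adjusted p was above the threshold without any of WT replicates 1, 2 and 3 (0.0656, 0.0664 and 0.0606) and without Aff3ir-ORF2-/- replicate 1 (0.0533), and it was 0.000172 without replicate 2, at a log2 fold change of -0.37. Without Aff3ir-ORF2-/- replicate 3 the log2 fold change of *Nr1d1* was -0.71, past 1.5-fold, so that 2 members were called lower.

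Counts of *Nr1d1* and *Dbp* were not whole numbers in all 6 libraries, while those of the other members were whole in every library, as estimated counts can be where reads match more than 1 feature. In GENCODE M21, *Nr1d1* shares 263 exon bases with *Thra*, a thyroid hormone receptor gene on the opposite strand, and *Dbp* shares 539 with *Sphk2*, a sphingosine kinase gene on the opposite strand. The counts of *Thra* were 528, 500 and 489 for WT and 671, 881 and 766 for the knockout libraries, a rise of 0.53 on the log2 scale (edgeR adjusted p = 0.000824), and was highest in the library where *Nr1d1* was lowest. *Sphk2* rose by 0.41 (adjusted p = 0.0039). Whether counting used the strand is not given in the sources used here, so reads in the shared bases cannot be assigned to a strand, and the values of *Nr1d1* and *Dbp* are uncertain to that extent. *Cry2*, *Tef* and *Bhlhe40* share 295, 193 and 118 exon bases with opposite-strand transcripts (*D930015M05Rik*, *Gm17597* and *0610040F04Rik*) that are not in the count table. Reads in those bases cannot be assigned to a strand either, although the counts of these members were whole. *Camta1*, in the annotation on the strand of *Per3*, shares 0 exon bases with it and had an adjusted p of 0.758 at a log2 fold change of -0.06. *Car11*, near *Dbp*, had 6 to 18 counts per library and did not pass the test (adjusted p = 0.634).

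The PAR bZIP genes, which pass the rhythm to genes of metabolism, did not pass the test among the members. *Dbp* (gene ID 13170), often the most strongly cycling of these genes, was at 4.58, 5.23 and 4.41 CPM in WT and at 4.77, 5.31 and 5.94 CPM in Aff3ir-ORF2-/- libraries. The groups overlapped, and the log2 fold change was 0.17 (95% interval -0.15 to 0.49, edgeR adjusted p = 0.322). *Tef* (gene ID 21685) was at 53.7, 53.9 and 54.0 CPM in WT, close together, and at 53.6, 43.0 and 50.1 CPM in the knockout. Every knockout value of *Tef* was below WT, but replicate 1, at 53.6 against 53.7 CPM, was so only after TMM scaling. The log2 fold change was -0.14 (95% interval -0.31 to 0.03, adjusted p = 0.14). Without Aff3ir-ORF2-/- replicate 1 the log2 fold change was -0.21 and the adjusted p 0.0347. *Bhlhe40* (gene ID 20893) was at 76.7, 70.4 and 75.3 CPM in WT and at 74.7, 85.2 and 70.3 CPM in the knockout. The lowest libraries of the genotypes were nearly equal, the log2 fold change was 0.05 (95% interval -0.11 to 0.21, adjusted p = 0.58), and it was -0.04 without Aff3ir-ORF2-/- replicate 2.

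The ranges of WT and Aff3ir-ORF2-/- libraries did not overlap for 7 members, 6 with the knockout lower (the 5 that fell and *Tef*) and 1 with it higher (*Per3*). For *Tef* this depended on the TMM scaling. Over all tested genes 32.7% were without overlap and lower and 33.3% without overlap and higher. The knockout libraries were the more variable ones: the median coefficient of variation of the members was 4.51% in WT and 8.46% in the knockout, against 4.39% and 7.68% over all tested genes. Of the members 7 of 10 (70%) varied more among the knockout libraries, as did 69.4% of all tested genes. Aff3ir-ORF2-/- replicate 2 was the lowest of its group for 5 members (*Per1*, *Per2*, *Nr1d1*, *Nr1d2* and *Tef*) and the highest for 4 (*Per3*, *Cry1*, *Cry2* and *Bhlhe40*). Without it, 5 members still passed lower and 1 higher.

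**Figure D2:**
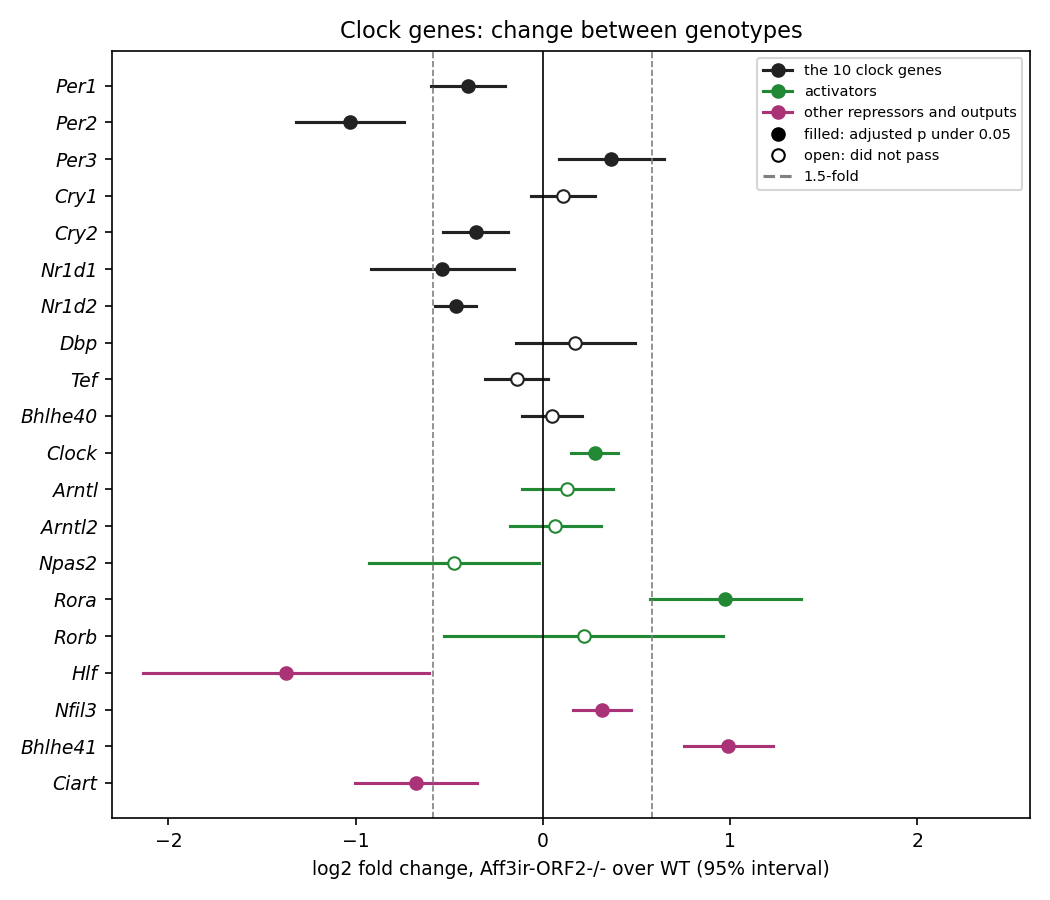
Log2 fold changes of Aff3ir-ORF2-/- over WT (horizontal axis, 95% intervals from edgeR as lines) for the 10 clock genes (black), 6 activators (green) and 4 other repressors and outputs (purple), filled where the adjusted p was under 0.05, with dashed lines at 1.5-fold. *Per2* (-1.03), *Hlf* (-1.37) and *Ciart* (-0.68) lie beyond the left line, and *Rora* (0.97) and *Bhlhe41* (0.99) beyond the right one.

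To set the members beside each other, CPM was divided by the length in kb of the longest protein-coding GENCODE M21 transcript. On this level scale the WT order was *Bhlhe40* (23.8 ± 1.06 CPM per kb, SD, n = 3), *Nr1d2* (15.4 ± 0.333), *Nr1d1* (15 ± 0.349), *Tef* (12.2 ± 0.0347), *Cry2* (7.53 ± 0.554), *Per1* (6.24 ± 0.638), *Cry1* (5.61 ± 0.264), *Dbp* (2.58 ± 0.235), *Per2* (1.30 ± 0.048) and *Per3* (1.06 ± 0.146). In that order the neighbours *Nr1d2* and *Nr1d1*, and *Per1* and *Cry1*, had overlapping libraries, and the others did not. In Aff3ir-ORF2-/- MEFs *Bhlhe40* remained first at 24.7 ± 2.46 CPM per kb. *Nr1d2* (11.1 ± 0.378), *Tef* (11.1 ± 1.23) and *Nr1d1* (10.3 ± 2.47) then ran together with overlapping libraries. *Cry1* (6.05 ± 0.381) and *Cry2* (5.88 ± 0.39) overlapped next, above *Per1* (4.73 ± 0.329) and *Dbp* (2.90 ± 0.318). At the low end the order turned, with *Per3* (1.36 ± 0.0619 CPM per kb) above *Per2* (0.635 ± 0.0652) and no overlap.

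Ratios within a library do not depend on the scaling between libraries, and 7 were formed from the counts. *Per1*/*Per2* was 3.94, 4.05 and 3.53 in WT and 6.23, 6.06 and 5.54 in Aff3ir-ORF2-/- libraries, higher in every knockout library, by 0.63 on the log2 scale. *Per1*/*Per3* was 4.19, 5.27 and 4.34 in WT and 2.95, 2.37 and 2.76 in the knockout, lower in every library. *Cry1*/*Cry2* was 0.531, 0.591 and 0.587 in WT and 0.816, 0.760 and 0.779 in the knockout, higher in every library by 0.46 on the log2 scale. *Per2*/*Arntl*, a ratio of a repressor to the activator that drives it, was 0.192, 0.188 and 0.170 in WT and 0.0806, 0.0643 and 0.109 in the knockout. *Nr1d1*/*Arntl* was 1.02, 1.01 and 0.928 in WT and 0.636, 0.402 and 0.905 in the knockout, where replicate 3 lay close to WT. These 5 ratios had p = 0.1 in an exact two-sided permutation test, the smallest p that 3 libraries against 3 allow, and an adjusted p of 0.14 over the 7 ratios, so none could pass 0.05. *Nr1d1*/*Nr1d2* (0.578, 0.562 and 0.571 against 0.543, 0.416 and 0.666) and *Dbp*/*Tef* (0.0858, 0.0975 and 0.0821 against 0.0895, 0.124 and 0.119) overlapped between the genotypes, with exact permutation p = 0.7 and 0.2.

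**Figure D3:**
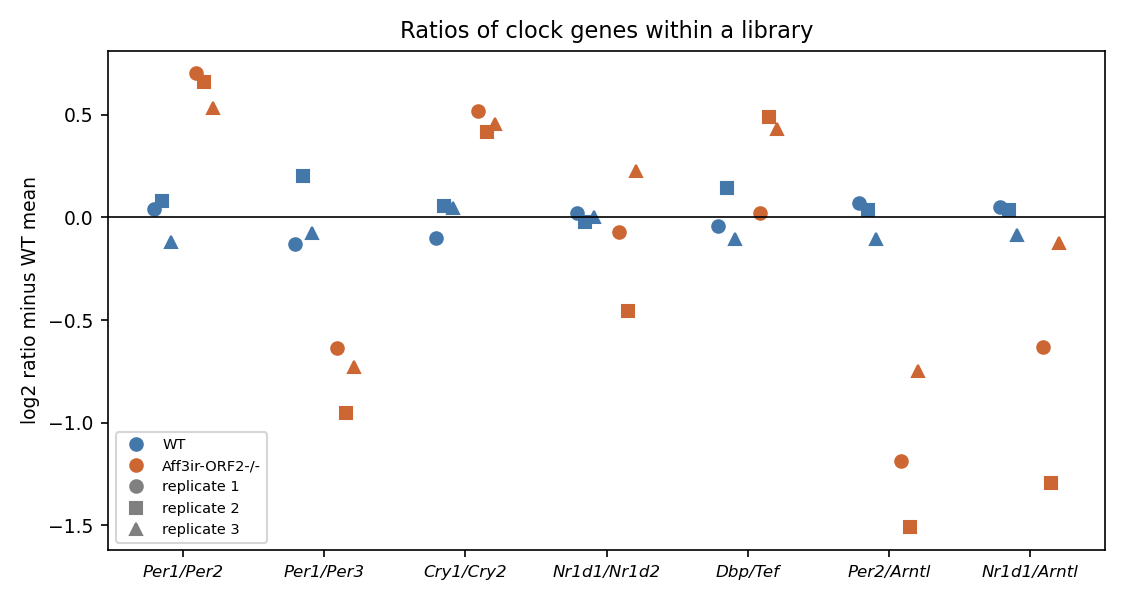
Log2 ratio of the counts of a pair of clock genes within each library, minus the mean log2 ratio of the WT libraries (vertical axis), for WT (blue) and Aff3ir-ORF2-/- (orange) libraries with replicate numbers as symbols. The genotypes stand apart for 5 ratios, such as *Per1*/*Per2* with a mean difference of 0.63, and overlap for *Nr1d1*/*Nr1d2* and *Dbp*/*Tef*.

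The positive arm was then read from 6 tested activators, of which 2 passed the adjusted p higher and 0 lower. Over all tested genes 29.3% passed higher and 27.5% lower. *Clock*, the partner of BMAL1, was counted 1249, 1334 and 1232 times in WT and 1724, 1568 and 1583 times in the knockout, all higher, a rise of 0.28 on the log2 scale (SE 0.06, edgeR adjusted p = 0.00238). *Arntl* had 705, 708 and 750 counts in WT and 837, 971 and 693 in the knockout, which overlapped. Its log2 fold change was 0.13 (95% interval -0.11 to 0.37, adjusted p = 0.32), and 0.24 (adjusted p = 0.0155) without Aff3ir-ORF2-/- replicate 3. *Rora*, the receptor that activates *Arntl* at the sites where the REV-ERB proteins repress it, stood out in this list, with 314, 372 and 309 counts in WT and 624, 876 and 564 in the knockout. *Rora* rose by 0.97 on the log2 scale (SE 0.17, 1.96-fold, adjusted p = 0.00255) and was the 1 activator called at 1.5-fold. *Npas2*, a paralogue of *Clock*, had 45, 49 and 43 counts in WT and 31, 43 and 30 in the knockout, at a log2 fold change of -0.47 (adjusted p = 0.0697), or -0.65 (adjusted p = 0.0195) without Aff3ir-ORF2-/- replicate 2. *Arntl2*, a paralogue of *Arntl*, was at 115 to 125 counts in WT and 123 to 138 in the knockout, at 0.07 (adjusted p = 0.619). *Rorb* had 10 to 13 counts in WT and 11 to 19 in the knockout (adjusted p = 0.599).

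Of 4 further repressors and outputs of the loop, each passed the adjusted p, 2 in each direction. Among all tested genes, 29.3% passed higher and 27.5% lower. *Hlf*, the third PAR bZIP gene, was counted 43, 27 and 26 times in WT and 10, 19 and 10 times in the knockout. These few counts did not overlap, and *Hlf* fell by 1.37 on the log2 scale (SE 0.34, 2.59-fold, edgeR adjusted p = 0.00687). *Nfil3*, the repressor at D-boxes, had 540, 506 and 502 counts in WT and 635, 738 and 659 in the knockout, a rise of 0.31 (SE 0.07, adjusted p = 0.00349). *Bhlhe41*, the paralogue of *Bhlhe40*, had 225, 188 and 218 counts in WT and 393, 438 and 494 in the knockout, and rose by 0.99 (SE 0.11, 1.99-fold, adjusted p = 4.4e-05). *Ciart*, a repressor of CLOCK and BMAL1, had 105, 100 and 109 counts in WT and 66, 81 and 60 in the knockout, and fell by 0.68 (SE 0.15, 1.60-fold, adjusted p = 0.00311). *Hlf* and *Ciart* were called lower and *Bhlhe41* higher at 1.5-fold.

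The list of 25 clock modifiers held kinases, ubiquitin ligases, deacetylases and other factors, such as *Timeless* and *Tipin*. Of these 25, 13 passed the adjusted p lower and 4 higher. Of all tested genes 27.5% passed lower and 29.3% higher. The median log2 fold change of the modifiers was -0.14. The 3 called lower were *Timeless* (36.7 ± 0.911 CPM in WT and 15.1 ± 1.59 in Aff3ir-ORF2-/- MEFs, SD, n = 3), its partner *Tipin* (58.1 ± 1.20 and 33.0 ± 2.39) and the deacetylase gene *Sirt1* (37.1 ± 0.727 and 24.4 ± 2.19). *Timeless* and *Tipin* are also known to protect replication forks. *Timeless* fell by 1.29 on the log2 scale, *Tipin* by 0.81 and *Sirt1* by 0.60, which at 1.52-fold was close to the threshold. The number called lower was 2 without Aff3ir-ORF2-/- replicate 2 or 3, with upper quartile scaling and with total counts only. *Hdac3*, the deacetylase that REV-ERB proteins recruit, fell by 0.40 (edgeR adjusted p = 0.000164). *Prkaa2*, a catalytic subunit gene of AMP kinase, rose by 1.11 and was the 1 called higher. The casein kinase 1 genes *Csnk1d*, *Csnk1e* and *Csnk1a1*, whose kinases mark PER proteins for breakdown, were lower in every knockout library than in WT. Such a lack of overlap was common, with 32.7% of all tested genes lower in that way. *Csnk1e* fell by 0.23 (adjusted p = 0.0254) and *Csnk1a1* by 0.14 (0.0131), and *Csnk1d* was at -0.06 (0.196).

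Genes that follow the clock in many tissues went in both directions. Of 14 tested in a list of 15 rhythmic outputs, 4 passed the adjusted p higher and 6 lower. Over all tested genes these shares were 29.3% and 27.5%. The median log2 fold change of this list was -0.06. *Lonrf3* rose from 3.93 ± 0.609 to 14.2 ± 1.78 CPM (SD, n = 3), by 1.85 on the log2 scale. *Noct*, which encodes the rhythmic enzyme nocturnin, fell from 117 ± 1.29 to 59.1 ± 13.8 CPM, by 0.98. *Cirbp*, a cold-inducible RNA-binding protein gene, fell by 0.70, and *Wee1*, a cell cycle kinase gene with known E-boxes, fell by 0.49 (edgeR adjusted p = 0.00013). *Por*, a P450 reductase gene, rose by 0.49. *Nampt*, the rate-limiting enzyme of NAD salvage, was at 0.09 (adjusted p = 0.237) and *Usp2* at 0.02 (adjusted p = 0.906) on that scale.

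Inputs to the clock were read from 3 lists. In a list of 20 immediate-early genes, which serum and growth factors switch on within minutes, 14 passed both thresholds lower and 0 higher. Over all tested genes 7.27% passed both lower and 14.2% higher. All 20 log2 fold changes of the list were below 0, with a median of -1.11. The summed level of this list was 1850 to 1980 CPM in WT and 762 to 920 CPM in Aff3ir-ORF2-/- libraries. Its part in the lower *Per1* and *Per2* values was not tested. Of 12 genes of the CREB pathway, through which cyclic AMP reaches *Per1*, 4 passed the adjusted p higher and 3 lower. The shares over all tested genes were 29.3% higher and 27.5% lower. *Crem*, which encodes activator and repressor forms, rose by 0.80 (edgeR adjusted p = 0.000158), *Crtc1* rose by 0.39 (0.00104), *Sik1*, a kinase gene that restrains the coactivators, fell by 0.41 (0.00738), and *Creb1* itself was at 0.00 (0.995). Among 9 tested of 10 glucocorticoid-responsive genes, 4 passed higher and 3 lower, against the same 29.3% and 27.5% of all tested genes. *Sgk1* was lower by 1.35 on the log2 scale, *Fkbp5* lower by 0.55 and *Tsc22d3* higher by 0.60.

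**Figure D4:**
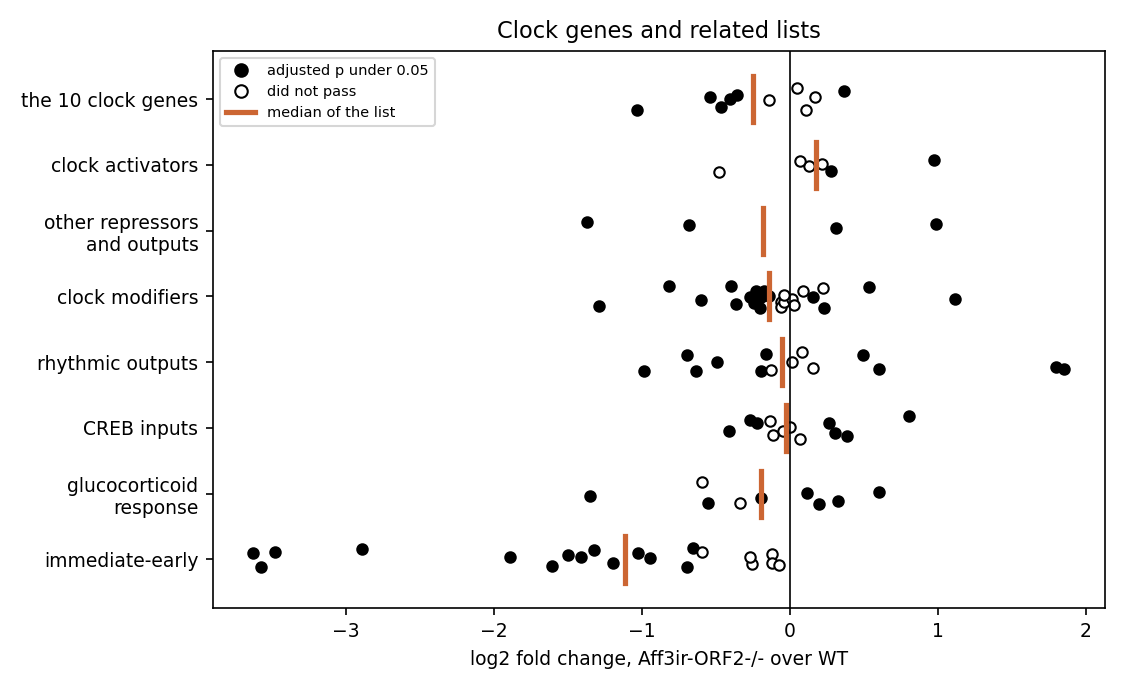
Log2 fold changes of Aff3ir-ORF2-/- over WT (horizontal axis) for every tested gene of the 10 clock genes and 7 related lists, filled where the adjusted p was under 0.05, with the median of each list as an orange bar and points spread vertically only for legibility. The clock genes lie on both sides of 0 around a median of -0.25, and the immediate-early genes all lie below 0 around -1.11.

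Total counts were 17435133 to 17726034 in WT and 18209421 to 18252330 in Aff3ir-ORF2-/- libraries, which puts a floor of 3 counts at 0.161 to 0.174 CPM. The common biological coefficient of variation was 0.0184 among WT and 0.0996 among knockout libraries. The fibroblast markers were abundant in both genotypes (10 genes, summed 27600 to 27800 CPM in WT and 24500 to 31100 CPM in the knockout). All 15 macrophage markers were called higher in Aff3ir-ORF2-/- libraries, against 14.2% of all tested genes. Their summed level was 19.6 to 22.9 CPM in WT, where *C1qa* and *C1qb* were at 0, and 1340 to 2310 CPM in the knockout. The summed levels of markers of other cells that the cultures could hold were endothelial (19.4 to 20.8 CPM in WT, 29.2 to 41.7 in the knockout), epithelial (21.9 to 22.6, 12.5 to 24.0), neural (40.6 to 45.8, 19.5 to 25.2), erythroid (0 to 0.0574, 0 to 0.220), lymphoid and neutrophil (0.0564 to 0.287, 0.657 to 0.988), and skeletal muscle (74.7 to 76.6, 212 to 326, nearly all *Acta1*). The 4 tested endothelial markers did not move together. On the log2 scale, 2 were above 0 (*Kdr* at 1.01 and *Eng* at 0.86) and 2 below (*Cdh5* at -0.90 and *Tek* at -1.28). In bulk RNA, a change in the number of cells of a type and a change in RNA per cell cannot be told apart. The part of macrophage RNA in the values of the clock genes was not tested. The targeted *Aff3ir-ORF2* was not analysed here, so no value of it checks the labels. The counts of *Aff3*, the gene within which it is nested, were 406, 406 and 418 for WT and 229, 186 and 209 for Aff3ir-ORF2-/- libraries, a fall of 1.06 on the log2 scale (edgeR adjusted p = 1.23e-05).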

How the data were processed

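RNA-seq of 6 libraries of MEFs, 3 WT and 3 Aff3ir-ORF2-/-, was analysed. Reads were filtered with SOAPnuke, and the authors deposited estimated counts, not normalized, in 1 table of genes by libraries. The submitters' processing notes name mm8. The aligner and counting tool are not given in the sources used here. In each library 10.6% to 11.3% of the genes had a fractional value, and all counts were rounded. The low counts were filtered with filterByExpr (minimum count 10, total 15) in edgeR 4.0.16, which left 13075 of 17092 genes, including all 10 members. Genotypes were compared with TMM scaling and the robust quasi-likelihood test, without covariates, and Benjamini-Hochberg adjustment over all tested genes. SEs were derived from the F statistic. Ratios had 0.5 added to each count.

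The members and gene lists were chosen with earlier results of these data known, so no list is independent evidence. Genes named in the text are all members, activators and further repressors, up to 6 per other list by adjusted p, genes overlapping or adjoining a member, and at most 4 per cell type list, though not every such gene is reported. *Csnk1d*, *Csnk1e*, *Csnk1a1*, *Nampt*, *Usp2* and *Creb1* are named for their roles outside that rule, chosen after their values were seen. Promoter windows were taken from RefSeq (GRCm38.p6), and overlaps and lengths from GENCODE M21. Since the builds differ, no coordinate was carried between the files and these tables. R 4.3.3, limma 3.58.1, DESeq2 1.42.0, Python 3.11.15 and matplotlib 3.10.9 were used. Alternatives were other scalings, filters, tests and thresholds, the replicate number as a block, each library left out in turn, and, chosen after seeing the data, robust estimation off. Floors cover counting error only. The 95% intervals were derived from the F statistic, which includes the spread between these libraries.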

Additional observations from a re-analysis of the deposited data

How the results depend on the processing

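Of the 10 clock genes, *Per1*, *Per2*, *Cry1*, *Cry2*, *Nr1d2* and *Dbp* kept their direction and their side of the threshold under the 15 alternatives run for each gene. By adjusted p alone 5 members were lower and 1 higher, against 1 and 0 with 1.5-fold as well. Leaving out a library gave 1 to 2 members called lower, and 0 to 1 member past the adjusted p higher, which was also 0 with DESeq2's Wald test. Over all tested genes, calls higher and lower were 1851 and 951, 1096 and 317 at 2-fold, and 3831 and 3591 by adjusted p alone. With a library left out, activators called lower numbered 0 to 1, modifiers 1 to 2 higher and 2 to 3 lower, rhythmic outputs 1 to 3 higher and 2 to 3 lower (2 without Aff3ir-ORF2-/- replicate 2), and glucocorticoid-responsive genes 0 to 1 higher and 1 to 2 lower, and 2 of the latter were also lower with limma voom and with robust estimation off. The medians of rhythmic outputs (0.003 without the filter) and CREB genes (0.014 with upper quartile scaling, 0.005 with total counts) reversed, as did *Bhlhe40* (-0.037 to 0.107 with a library left out, negative without Aff3ir-ORF2-/- replicate 2), *Rorb* (-0.049 to 0.371, negative without Aff3ir-ORF2-/- replicate 1) and *Nr1d1*/*Nr1d2* (-0.264 to 0.076, positive without Aff3ir-ORF2-/- replicate 2). The cause was not tested.

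Whether replicate numbers pair the samples was not settled. Same-numbered WT and Aff3ir-ORF2-/- libraries correlated in their deviations from the group means at 0.015 to 0.042, with 0 of 3 pairs over 0.1. Each library correlated best with its own number in 3 of 3 pairs. Deviations within a group of 3 libraries sum to 0, so this check cannot decide the question. With the replicate number as a block, 1854 genes were called higher and 954 lower, and among the members 5 passed lower and 1 higher. Low counts limit *Rorb*, *Hlf* and *Npas2*.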
